A study of Mus musculus with 4 samples.

Results

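The elastic fibre and fibulin genes were named by gene symbol as Eln, Fbn1, Fbn2, Fbln1, Fbln2, Fbln5, Efemp1, Efemp2, Mfap5 and Lox. All probe sets with 1 of these symbols in the platform annotation were taken. This gave 17 probe sets of 8 genes, of 18193 named genes on the array. Fbn1 and Efemp2 were not analysed here. The RNA came from immortalised mouse embryonic fibroblasts and was read on 4 Affymetrix arrays. All cells carried a PA1 allele flanked by loxP sites, and all were selected with puromycin. The PA1 -/- cells (2 arrays, numbered 1 and 2) had received a retrovirus with Cre recombinase, which removes DNA between loxP sites. The PA1 +/+ cells (2 arrays, numbered 1 and 2) had received the retroviral vector alone. The labels do not say whether arrays of 1 genotype came from separate cultures, so a p-value measures only the spread between these arrays, which may be technical. The series asked which genes are regulated by PA1. PA1 was read as Pagr1a, whose protein belongs to the KMT2C and KMT2D histone methyltransferase complexes together with PTIP.

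Elastic fibres give skin, lung and arteries their recoil. Fibroblasts and smooth muscle cells secrete fibrillins, which polymerise into microfibrils, and tropoelastin, the soluble product of Eln, is laid onto these microfibrils with the help of fibulins. Lysyl oxidases then oxidise lysine side chains so that elastin molecules are joined by covalent cross-links. Fibulins are secreted glycoproteins with repeated calcium-binding EGF-like modules, and several also sit in basement membranes and in fibronectin matrices.

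RefSeq promoter entries (build GRCm38.p6) were found for 4 of the 8 measured genes. The 250 bases before the start are shown for Efemp1 and Fbln5, which read lower in PA1 -/- cells at both replicate numbers, and for Fbln2, which read higher. For Fbln5 the upstream of its 2 listed starts is shown. Capitals mark matches, on either strand, to a GC box (GGGCGG), an AP-1 motif (TGANTCA) or a C/EBP motif (TTGCNNAA), where N is any base.

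Efemp1, chr11:28852955-28853204, plus strand: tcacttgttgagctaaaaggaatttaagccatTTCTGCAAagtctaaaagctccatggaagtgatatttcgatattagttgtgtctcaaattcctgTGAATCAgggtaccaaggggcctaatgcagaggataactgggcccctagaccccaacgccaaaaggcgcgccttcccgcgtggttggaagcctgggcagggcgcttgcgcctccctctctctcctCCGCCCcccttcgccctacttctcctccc

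Fbln5, chr12:101819120-101819369, minus strand: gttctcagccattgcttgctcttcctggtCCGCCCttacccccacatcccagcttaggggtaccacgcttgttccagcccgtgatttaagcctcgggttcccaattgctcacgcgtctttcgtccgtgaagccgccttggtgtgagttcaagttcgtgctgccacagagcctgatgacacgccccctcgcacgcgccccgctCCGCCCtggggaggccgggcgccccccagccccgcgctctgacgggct

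Fbln2, chr6:91212514-91212763, plus strand: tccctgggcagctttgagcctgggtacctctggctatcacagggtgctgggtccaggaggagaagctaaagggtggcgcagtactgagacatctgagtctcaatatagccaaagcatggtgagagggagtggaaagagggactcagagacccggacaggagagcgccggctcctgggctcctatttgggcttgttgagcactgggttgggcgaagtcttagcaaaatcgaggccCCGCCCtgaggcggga

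Each of these printed windows held a GC box, a motif found in 32.7% of all 32851 promoter windows of the same length. The windows not printed differed. The downstream Fbln5 start and the upstream Fbln1 start held no GC box, and the other Fbln1 start held one 11 bases before it. A GC box was therefore not shared by all listed starts of these genes. The Efemp1 window also held a match to the open AP-1 pattern, as TGAATCA, 154 bases before the start. That pattern was present in 6.7% of windows. A C/EBP match lay 218 bases before the start, a pattern present in 9.6%. Neither was found in the printed Fbln5 and Fbln2 windows. The TATA box (TATAAA, 12.4% of windows) and the TEAD motif (GGAATG, 12.6%) were searched as well and matched in none of the 3 windows. The matched stretches did not overlap each other. A match describes letters and not binding.

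Values are MAS5 signals, linear array intensities scaled per array. Median signals ran from 63.2 to 66.4 over the arrays. Precision is limited by there being 4 of them. Differences are given as log2(signal + 9.96), PA1 -/- minus PA1 +/+, where 9.96 is the 20th percentile of all signals, so that the change of a dim probe set is understated. Pagr1a read 107.6 and 113.4 on the PA1 -/- arrays numbered 1 and 2, against 1340 and 1389 on the PA1 +/+ arrays. Its difference was -3.52 at number 1 and -3.50 at number 2, and the other 2 probe sets of Pagr1a were lower by similar amounts. Neither the labels nor the file say whether these probe sets lie within the deleted part. Arrays of the same number but different genotype correlated at 0.971 and 0.977 over tested probe sets, and arrays of the same genotype at 0.920 (PA1 -/-) and 0.918 (PA1 +/+). Each difference is therefore given within each number too. The summed signal of 8 fibroblast markers, led by bright ones such as Vim, was 62882 and 70759 in PA1 -/- cells, against 73257 and 87567 in PA1 +/+ cells. Of the 8, 6 were lower at both numbers, against 29.3% of all tested genes, and 2 went opposite ways. Pdgfra differed most, at 133.8 and 210.3 in PA1 -/- cells, against 1515 and 357.3 in PA1 +/+ cells (-3.41 at number 1 and -0.74 at number 2). Marker lists of other lineages were read as well, and no marker was listed at 0. The 4 endothelial markers summed to 135 and 147 in PA1 -/- cells, against 131 and 107 in PA1 +/+ cells, with 1 of 4 in the brighter 50% of probe sets, the ones tested (Kdr), and Pecam1 at 3.36 to 10.2. The 4 epithelial markers summed to 443 and 267 in PA1 -/- cells, against 657 and 233 in PA1 +/+ cells, with 2 of 4 tested (Epcam and Krt18). Cdh1, which was not, read 24.5 and 1.46 in PA1 -/- cells, against 159.6 and 3.37 in PA1 +/+ cells. The 4 macrophage markers summed to 422 and 316 in PA1 -/- cells, against 369 and 276 in PA1 +/+ cells, with 2 of 4 tested (Csf1r and Cd68) and Ptprc at 3.83 to 16.8. The 2 adipocyte markers on the array were Adipoq, at 17.8 to 21.7, and Fabp4, which read 70.2 and 462.3 in PA1 -/- cells, against 296.9 and 406.7 in PA1 +/+ cells (-1.94 at number 1 and 0.18 at number 2). Of 4 tested smooth muscle markers, which activated fibroblasts partly share, 2 were higher at both numbers and 2 went opposite ways. The summed signal of all 5 listed was 36334 and 34228 in PA1 -/- cells, against 29712 and 33460 in PA1 +/+ cells. The sum of 3 chondrocyte markers was 1849 and 620 in PA1 -/- cells, against 1922 and 2043 in PA1 +/+ cells. The part of these markers in the differences of the elastic fibre genes was not tested. In such bulk samples, fewer cells of a type and less RNA per cell cannot be told apart.

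Of the 8 genes, 5 read lower in PA1 -/- cells at both replicate numbers: Fbn2, Lox, Fbln5, Efemp1 and the dim Mfap5. Fbln2 read higher at both, and Fbln1 and Eln differed in opposite directions at the 2 numbers. Among the 6 of these genes that were tested, 4 were lower at both numbers, 1 was higher at both and 1 went opposite ways. Across all 10714 tested genes, 29.3% were lower at both numbers, 33.9% were higher at both and 36.8% went opposite ways. None of the differences passed limma's test over all tested probe sets with genotype as the only term. That test called 0 of the 10 tested elastic fibre probe sets and 0% of the 22519 probe sets in all. It did not call Pagr1a either (-3.52 and -3.50, limma adjusted p = 0.876), so a difference it left uncalled cannot be read as absent. At an unadjusted p under 0.05 it held 1 of the 10, a probe set of Fbln2, and 1.95% of all tested probe sets. A fit with the replicate number as a further term made calls among these genes and is given with the dependence on processing. With 2 arrays a genotype, the smallest p of an exact permutation test is 0.333.

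**Figure D1:**
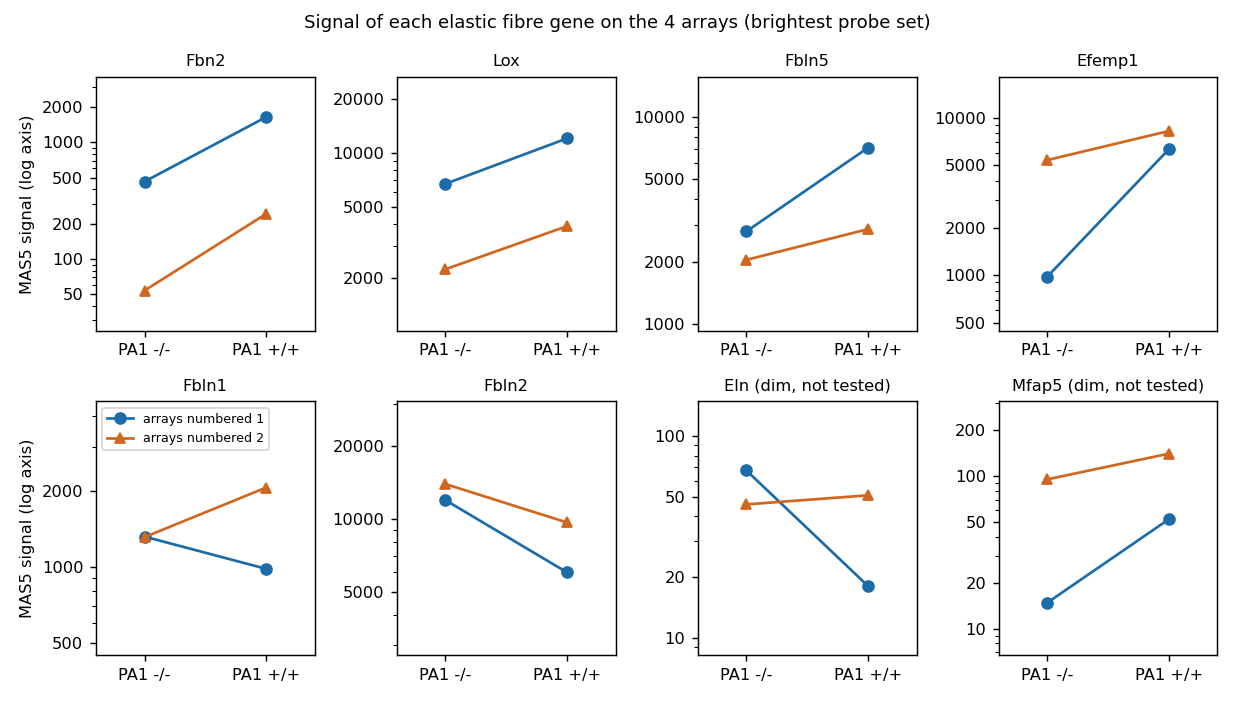
MAS5 signal (log axis, 1 panel a gene, each with its own range) of the brightest probe set of each gene, with the PA1 -/- arrays on the left and the PA1 +/+ arrays on the right of each panel. Lines join arrays of the same replicate number: both lines go up to the right for Fbn2, Lox, Fbln5, Efemp1 and Mfap5, both go down for Fbln2, and they go different ways for Fbln1 and Eln.

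Eln, the gene of the core protein, was dim on all 4 arrays. The brighter of the 2 Eln probe sets gave 67.5 and 45.8 in PA1 -/- cells numbered 1 and 2, against 18.0 and 50.8 in PA1 +/+ cells, and the other stayed between 3.87 and 10.6 on every array. Testing was limited to the 50% of probe sets with the higher mean, down to a signal near 62.8, and both Eln probe sets lay under that boundary. The 2 genotypes overlapped, and the difference of the brighter probe set was 1.47 at number 1 and -0.12 at number 2. No difference in Eln was tested.

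Among the microfibril genes, Fbn2 was the one with a difference of at least 2-fold at both numbers. Fbn2 encodes fibrillin-2, a microfibril protein made mainly in embryonic and growing tissue. It read 462.5 and 53.9 in PA1 -/- cells numbered 1 and 2, against 1650 and 244.3 in PA1 +/+ cells. Within each number the PA1 -/- array was the lower one, 3.57-fold at number 1 and 4.54-fold at number 2 in signal. The PA1 +/+ array numbered 2 nevertheless lay below the PA1 -/- array numbered 1, so the genotypes overlapped. On the log2 scale the difference was -1.90 (SE 1.31), made up of -1.81 and -1.99, and it did not pass limma (adjusted p = 0.9998). This SE includes the gap between the replicate numbers, and with the number as a further term the SE was 0.201. The difference was -0.46 without the PA1 -/- array numbered 2 and -0.55 without the PA1 +/+ array numbered 1. It was -3.35 without the PA1 -/- array numbered 1 and -3.26 without the PA1 +/+ array numbered 2. Each such fit also carries part of the gap between the replicate numbers. The other Fbn2 probe set read 317.6 and 37.5 in PA1 -/- cells, against 1016 and 134.7 in PA1 +/+ cells, with differences of -1.65 and -1.61. A difference of at least 2-fold in the lower direction at both numbers was found for 0.831% of all tested genes, and Fbn2 was the 1 member among them. A difference of at least 2-fold in the higher direction at both numbers was found for 0.187% of tested genes and for 0 members.

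Mfap5, which encodes a small glycoprotein that binds fibrillins on microfibrils, was dim. Its brighter probe set read 14.8 and 95.3 in PA1 -/- cells, against 52.2 and 140.4 in PA1 +/+ cells, with differences of -1.33 and -0.51. The PA1 -/- array numbered 2 lay above the PA1 +/+ array numbered 1. The other probe set read 24.2 and 27.5 in PA1 -/- cells, against 25.0 and 44.5 in PA1 +/+ cells. Neither probe set reached the boundary for testing, and the brighter one lay just under it.

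The fibulin genes differed among themselves. Fbln5 encodes fibulin-5, which binds tropoelastin and is needed for normal elastic fibres in mice. It read 2800 and 2039 in PA1 -/- cells, against 7112 and 2871 in PA1 +/+ cells. Both PA1 -/- arrays lay below both PA1 +/+ arrays, but narrowly: PA1 -/- number 1 (2800) lay close to PA1 +/+ number 2 (2871). Within each number the PA1 -/- array was lower, by 2.54-fold at number 1 and 1.41-fold at number 2. The log2 difference was -0.92 (SE 0.484, limma adjusted p = 0.9998), with -1.34 at number 1 and -0.49 at number 2. The PA1 +/+ array numbered 1 stood well above the other 3 arrays, and without it the difference was -0.26. Without the PA1 +/+ array numbered 2 it was -1.57. The other Fbln5 probe set was dim, at 30.1 and 5.86 in PA1 -/- cells, against 35.1 and 5.59 in PA1 +/+ cells.

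Efemp1 encodes fibulin-3, whose loss in mice reduces elastic fibres in fascia. Its 1 probe set read 980 and 5393 in PA1 -/- cells numbered 1 and 2, against 6320 and 8249 in PA1 +/+ cells. The genotypes did not overlap, and the PA1 -/- array numbered 1 lay far below the other 3. The log2 difference was -1.64 (SE 0.821, limma adjusted p = 0.9998), with -2.68 at number 1 and -0.61 at number 2. Without the PA1 -/- array numbered 1 it was -0.42, and without the PA1 -/- array numbered 2 it was -2.87. Groups that did not overlap and were lower in PA1 -/- cells were found for 11.3% of all tested genes and for 2 members, Fbln5 and Efemp1.

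Fbln2 stood on the other side. It encodes fibulin-2, which binds fibrillin and fibronectin and also occurs in basement membranes. Its brighter probe set read 11966 and 13960 in PA1 -/- cells, against 6007 and 9671 in PA1 +/+ cells. Both PA1 -/- arrays were above both PA1 +/+ arrays, the nearest being 11966 and 9671. Within each number the PA1 -/- array was higher, by 1.99-fold at number 1 and 1.44-fold at number 2. The log2 difference was 0.76 (SE 0.27, limma adjusted p = 0.9998), with 0.99 and 0.53 within the numbers, and it was 0.42 without the PA1 +/+ array numbered 1. Groups that did not overlap and were higher in PA1 -/- cells were found for 15% of all tested genes and for 1 member. The other Fbln2 probe set read 294.4 and 584.7 in PA1 -/- cells, against 275.7 and 382.3 in PA1 +/+ cells. It was also higher at both numbers (0.09 and 0.60), but its genotypes overlapped.

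Fbln1 encodes fibulin-1, found in the elastin core of fibres and in basement membranes. Its brightest probe set read 1320 and 1314 in PA1 -/- cells, against 983 and 2069 in PA1 +/+ cells. The PA1 -/- arrays were nearly equal and lay between the PA1 +/+ arrays. The difference was 0.42 at number 1 and -0.65 at number 2, or -0.11 on average (SE 0.408, limma adjusted p = 0.9998). Another tested probe set read 769 and 943 in PA1 -/- cells, against 454 and 1300 in PA1 +/+ cells, and averaged 0.14, so the sign of the mean depended on the probe set. The brightest one gave 0.42 without the PA1 +/+ array numbered 2 and -0.65 without the PA1 +/+ array numbered 1. All 3 probe sets of Fbln1 were higher in PA1 -/- cells at number 1 and lower at number 2.

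**Figure D2:**
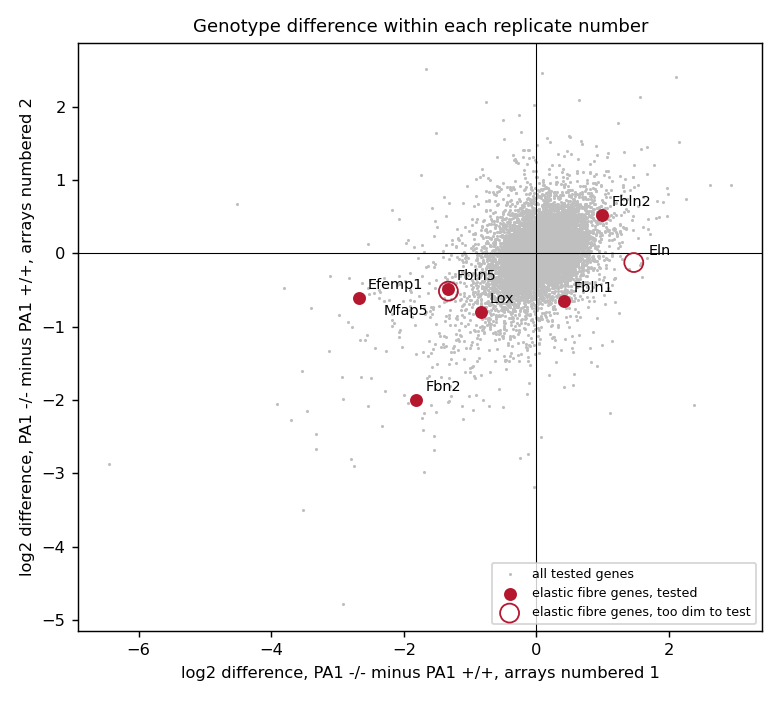
Log2 difference, PA1 -/- minus PA1 +/+, between the arrays numbered 1 (x axis) and those numbered 2 (y axis) for all 10714 tested genes (grey) and the elastic fibre genes (red, with open circles for the 2 genes too dim to test). Fbn2, Lox, Fbln5, Efemp1 and Mfap5 lie in the lower left, Fbln2 lies in the upper right, and Fbln1 and Eln lie in the lower right.

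Lox, the lysyl oxidase that cross-links elastin and collagen, read lower in PA1 -/- cells by a similar amount at both numbers through its brightest probe set. It read 6695 and 2231 in PA1 -/- cells numbered 1 and 2, against 12003 and 3883 in PA1 +/+ cells. Within each number the PA1 -/- array was lower, by 1.79-fold at number 1 and 1.74-fold at number 2. The PA1 -/- array numbered 1 still lay above the PA1 +/+ array numbered 2, so the genotypes overlapped. On the log2 scale the difference was -0.82 (SE 0.753, limma adjusted p = 0.9998), from -0.84 and -0.80. This SE too includes the gap between the replicate numbers, and with the number as a further term the SE was 0.128. The difference was -0.01 without the PA1 +/+ array numbered 1 and -0.03 without the PA1 -/- array numbered 2. It was -1.61 without the PA1 -/- array numbered 1 and -1.63 without the PA1 +/+ array numbered 2. These fits set arrays of unequal numbers against each other. Another probe set made to the same source sequence read 4170 and 1381 in PA1 -/- cells, against 8613 and 2500 in PA1 +/+ cells, with differences of -1.04 and -0.85. The remaining, dim probe set read 29.1 and 23.6 in PA1 -/- cells, against 92.1 and 26.6 in PA1 +/+ cells.

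For Fbn2 and Lox the arrays differed more by replicate number than by genotype. Number 2 minus number 1 was -2.89 in PA1 -/- cells and -2.71 in PA1 +/+ cells on the log2 scale for Fbn2, and -1.58 and -1.63 for Lox. A difference of at least 2-fold in that direction in both genotypes was found for 4.52% of all tested genes. Efemp1 and Mfap5 ran the other way, with the arrays numbered 2 higher by 2.45 and 2.09 in PA1 -/- cells and by 0.38 and 1.28 in PA1 +/+ cells. Fbln1 differed between the numbers by -0.01 in PA1 -/- cells and by 1.07 in PA1 +/+ cells. What a replicate number stands for is not given in the labels, and its part in the genotype differences was not tested in this fit. The median over the 6 tested genes was -0.87, against 0.02 over all tested genes, and it was -1.09 within number 1 and -0.63 within number 2. It was -0.29 without the PA1 -/- array numbered 2, -0.41 without the PA1 +/+ array numbered 1 and -1.51 without the PA1 +/+ array numbered 2, fits in which the genotypes hold unequal numbers.

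**Figure D3:**
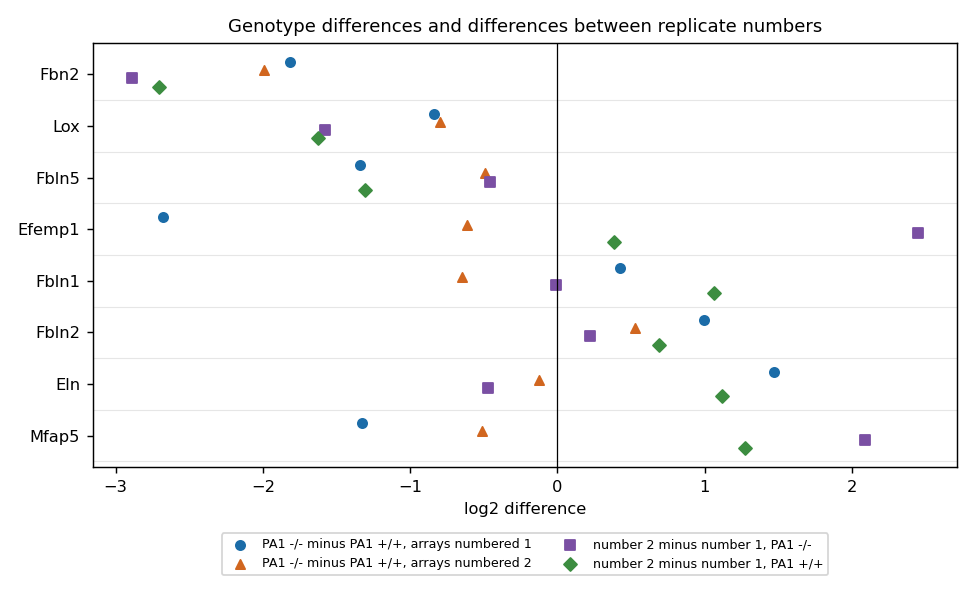
Log2 differences of the brightest probe set of each gene: PA1 -/- minus PA1 +/+ within the arrays numbered 1 (blue circles) and 2 (orange triangles), and number 2 minus number 1 within PA1 -/- cells (purple squares) and PA1 +/+ cells (green diamonds). For Fbn2 and Lox the 2 genotype differences lie close together, and the differences between numbers lie farther from 0.

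Other genes of the elastic fibre were read from 3 lists. None of these had a gene that passed limma over all tested probe sets (adjusted p = 0.9998 for each gene tested). None had a gene with an unadjusted limma p under 0.05 either, but neither did most genes: 231 of all 10714 tested genes had one. Of 18 microfibril and elastic fibre partners, 13 were bright enough to test. In PA1 -/- cells 5 were lower at both numbers, 4 were higher at both and 4 went opposite ways, with a median of -0.09. For comparison with each of the 3 lists, the shares over all tested genes were 29.3%, 33.9% and 36.8%, with a median of 0.02. On the lower side was Vcan, the proteoglycan versican, which binds fibrillin and fibulins. It read 776 and 2240 in PA1 -/- cells, against 2032 and 2788 in PA1 +/+ cells (-0.85). The genotypes of Vcan overlapped, and its difference was -1.38 at number 1 and -0.31 at number 2. On the higher side, Ltbp2, a fibrillin-binding relative of the latent TGF-beta binding proteins, read 3564 and 1478 in PA1 -/- cells, against 1227 and 1274 in PA1 +/+ cells (0.87). Its genotypes did not overlap, but the difference was 1.53 at number 1 and 0.21 at number 2. Mfap2, the relative of Mfap5, differed by -0.24 at each number, and its signals were 744 and 108.7 in PA1 -/- cells, against 878 and 129.8 in PA1 +/+ cells. Of the 2 further fibulin relatives on the list, both too dim to test, Hmcn1 (hemicentin-1) read 6.19 and 7.97 in PA1 -/- cells, against 223.1 and 12.4 in PA1 +/+ cells, so 1 array alone was high. Fbln7 read 23.5 and 1.87 in PA1 -/- cells, against 27.6 and 3.92 in PA1 +/+ cells.

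The lysyl oxidase family and its activation were read through 8 of 9 listed genes, with 3 lower at both numbers, 2 higher at both and 3 opposite, and a median of -0.01. Loxl4, another lysyl oxidase, read 759 and 312.4 in PA1 -/- cells, against 307.7 and 214.3 in PA1 +/+ cells (0.90), and was higher at both numbers while Lox was lower. Loxl1, the family member tied to elastin upkeep in mice, differed by 0.30 at number 1 and -0.36 at number 2. Loxl3 differed by -0.01 and -0.02. Bmp1, the protease that releases active Lox from its precursor, was higher at both numbers (0.67 and 0.50). Postn, encoding periostin, a matrix protein that binds Bmp1, read 426.5 and 4.36 in PA1 -/- cells, against 2766 and 22.4 in PA1 +/+ cells. It was at least 2-fold lower at both numbers on the log2 scale (-2.67 and -1.18), but both arrays numbered 2 were near the bottom of the signal range. Elastin receptor subunits and elastin-degrading enzymes, 6 of 10 tested, had 3 lower and 3 higher at both numbers and a median of -0.04. Mmp2, a gelatinase that also cuts elastin, read 3039 and 7401 in PA1 -/- cells, against 5701 and 7839 in PA1 +/+ cells (-0.49). Its difference was -0.91 at number 1 and -0.08 at number 2. Glb1, whose splice form is the elastin-binding protein, read 1267 and 1516 in PA1 -/- cells, against 955 and 1421 in PA1 +/+ cells (0.25). The Glb1 difference was 0.40 at number 1 and 0.09 at number 2. The macrophage elastase gene Mmp12 was between 1.73 and 5.02 on every array.

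**Figure D4:**
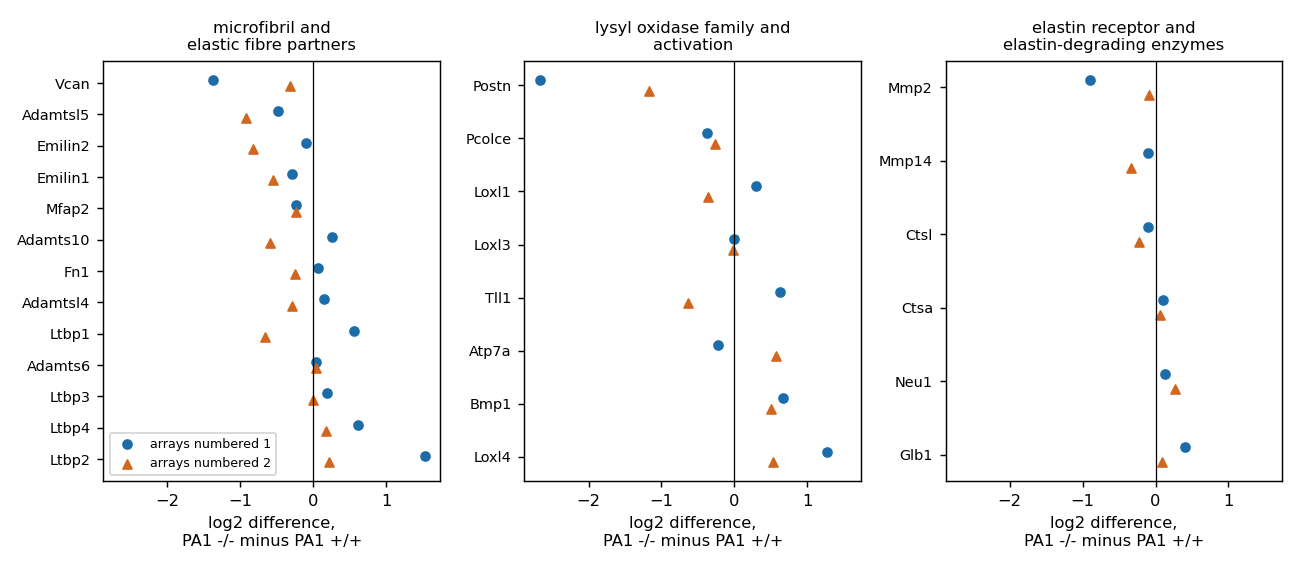
Log2 difference, PA1 -/- minus PA1 +/+, at number 1 (blue circles) and number 2 (orange triangles) for the tested genes of 3 lists, ordered by their mean difference. Most genes lie within 1 unit of 0, and Postn is the gene below -1 at both numbers.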

How the data were processed

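RNA of PA1 -/- and PA1 +/+ fibroblasts, 2 samples each, was hybridised to 4 Affymetrix arrays. The authors deposited 1 table of linear signal intensity per probe set. MAS5 is the tool named for it, per the submitters' processing notes; its version, background settings and scaling target are stated in no label or header. Per-array scaling hides changes that most genes share. Control probe sets (64) were dropped, leaving 45037, of which 34945 carried 1 symbol, 932 several (not named) and 9160 none. RefSeq (GRCm38.p6) held 34741 of the gene identifiers and changed 0 symbols.

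Signals were put on a log2(signal + 9.96) scale, and the 22519 probe sets in the upper 50% by mean were tested. A gene is given by its brightest probe set. Genotypes were compared in limma 3.58.1 under R 4.3.3, 2-sided, by lmFit and eBayes with a mean-variance trend. Genotype was the only term, which leaves 2 residual degrees of freedom. P-values were adjusted by Benjamini-Hochberg across the tested probe sets, at a threshold of 0.05. The fit was checked on simulated data with independent noise and, unlike these arrays, no gap between replicate numbers. Named genes are the members, Pagr1a, and from each list the genes at least 2-fold different at both numbers and the largest difference on either side. Mfap2, Hmcn1, Fbln7, the other lysyl oxidases, Bmp1, Mmp12 and the lineage markers were added after their values were seen. Members and lists were chosen with earlier results of these data known. Alternatives covered normalization (quantile, median), the pseudocount (1, or 64.9, the median signal), the filter (none, or the upper 30%), the variance trend, averaged probe sets, a block for replicate number, and each array omitted in turn. matplotlib 3.10.9 under Python 3.11.15 drew the figures.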

Additional observations from a re-analysis of the deposited data

How the results depend on the processing

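With genotype as the only term, 0 probe sets passed limma, members included, under either normalization, pseudocount, filter and variance model tried and without any 1 array. With the replicate number as a block, 447 of all 22519 tested probe sets and 7 of the 10 tested member probe sets passed limma. Lower in PA1 -/- cells were those of Fbn2 (limma adjusted p = 0.000821 and 0.00273), Lox (0.00798 and 0.00705), Fbln5 (0.0328) and Efemp1 (0.0293). Higher was 1 of Fbln2 (0.011). That fit has 1 residual degree of freedom per probe set, and the labels do not say that a number marks a shared culture or day. Deviations from the genotype means correlated between same-numbered arrays at 0.805 over tested probe sets. The median over member genes lay between -1.51 and -0.29 when each array was left out, and its direction was kept. The differences then ranged from -3.35 to -0.46 for Fbn2, -2.87 to -0.42 for Efemp1, -1.63 to -0.01 for Lox, -1.57 to -0.26 for Fbln5, -0.65 to 0.42 for Fbln1 and 0.42 to 1.10 for Fbln2. These fits hold unequal numbers in the genotypes. Taking the mean of its tested probe sets turned Fbln1 to 0.0149. Under the other settings each of the remaining 5 tested genes kept its direction. Genes lower at both numbers were 4 or 5, and 1 was higher at both.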
